A study of Mus musculus with 331 samples.

Results

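Dorsal and ventral white matter were compared within the spinal cords of mice labelled B6SJLSOD1-WT (WT below), from a spatial transcriptomics series on mouse models of amyotrophic lateral sclerosis. A spot is a printed patch of barcoded capture probes that collects polyadenylated RNA from the small area of section above it, which can hold parts of several cells. The authors assigned spots to anatomical regions. Dorsal white matter here is the spots marked Dors_Med_White, and ventral white matter is those marked Vent_Med_White or Vent_Lat_White. WT mice held 4503 such spots, of 83740 spots in the series. The counts of a mouse were summed over its dorsal spots and over its ventral spots, so each animal served as its own control. Of 24 WT mice, 20 had at least 10 spots and 10000 counts in each of the 2 sums and were tested: 5 mice aged p30, 4 aged p70, 6 aged p100 and 5 aged p120 (read as postnatal days). The labels name no treatment and do not say whether the WT line carries a transgene. Sections of 2 of the p70 mice lay on arrays shared with a mutant mouse, and only the WT count tables of those arrays were used.

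White matter of the cord is made of myelinated axons, the oligodendrocytes that wrap them, astrocytes and microglia, and it holds few nerve cell bodies. The dorsal columns carry the central branches of sensory neurons towards the brainstem and, in rodents, the main corticospinal tract. The ventral funiculi hold descending tracts from the brainstem and the exit zone of motor axons, which leave large motor neurons in the ventral horn. Axonal RNA, glial RNA and RNA from grey matter beside a spot all enter its counts.

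The tested sums comprised 874 dorsal spots (10 to 147 per mouse, median 33) and 3435 ventral spots (46 to 557, median 139.5). Dorsal sums held 10947 to 206085 counts (median 77030), and ventral sums 45063 to 761496 (median 303142.5), so low values were less precise dorsally. A grey matter spot lay next to 98.97% of the dorsal and 86.35% of the ventral spots, and a spot of the cord's edge lay next to 36.04% and 57.38%. The smallest dorsal sums were those of p70 replicate 2 (10 spots, 10947 counts), p100 replicate 1 (11 spots, 11389 counts) and p120 replicate 2 (10 spots, 18453 counts). Leaving out each of these mice in turn gave 388, 393 and 359 called genes in place of the 386 below. The white matter marks were high in both regions: Mbp, a main myelin protein gene, had 25720 ± 13200 CPM, counts scaled by the size of each sum (SD, n = 20 mice), dorsally and 30370 ± 11020 ventrally. In the tested mouse p120 replicate 6, labelled male, the female-specific transcript Xist stood at 112 CPM and the male-specific Ddx3y at 0.736. In p100 replicate 7, also tested and labelled male, Xist stood at 15.2 CPM and Ddx3y at 106. Without p120 replicate 6 the number of genes called was 364, and without p100 replicate 7 it was 335.

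Of 6585 genes tested, 386 (5.86%) differed between dorsal and ventral white matter at an adjusted p below 0.05 in edgeR's quasi-likelihood test. The p and SE of this test use variance estimates shared over genes. They do not measure the spread of a gene's own differences over the mice. Dorsal levels were higher for 158 genes (2.4%) and lower for 228 (3.46%). Without p120 replicate 5, a mouse of deep sums, 256 genes were called. The higher genes were led by transcripts of neurons and of the dorsal cord: the neuropeptide Sst, the protease inhibitor Serpinb1b, the transcription factor Zic1 and the long RNA Meg3. The lower genes were led by Kif5b, a heavy chain of the axonal transport motor kinesin-1, by the neurofilament genes Nefl and Nefh and by the astrocyte gene Gfap. The median over the 158 higher genes was 0.69 on the log2 scale, and over the 228 lower genes -0.46, beside -0.04 over all genes tested. A log2 difference past 1 was reached by 29 of the higher and 13 of the lower genes. The split depended on the scaling: with DESeq2's size factors 238 genes were called higher and 119 lower, a change of the share called higher from 40.9% to 66.7%, while the median of all genes moved from -0.04 to 0.03.

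**Figure D1:**
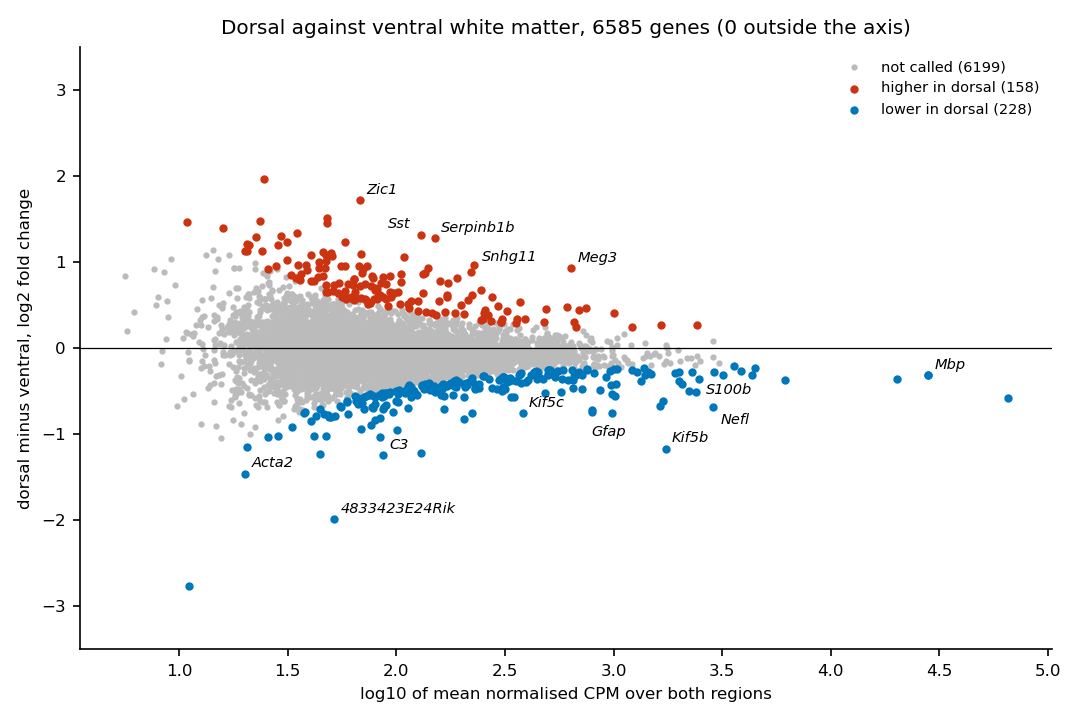
Each point is a gene, with the log10 of its mean normalised CPM over both regions on the x axis and the log2 difference of dorsal minus ventral white matter on the y axis. The 158 genes called higher in dorsal (red) and 228 called lower (blue) lie around the 6199 genes not called (grey), and Kif5b stands at -1.17 among the abundant genes.

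All 3 genes for the heavy chains of kinesin-1 were lower in dorsal white matter. Kif5b, the form present in most cells, had dorsal levels of 422.8 to 3396 CPM with a median of 844, against ventral levels of 481.3 to 6239 with a median of 2202. The 2 ranges overlapped between mice, but within each of the 20 mice the dorsal value was the lower one. The difference was -1.17 ± 0.08 (log2, SE; adjusted p = 4.91e-49), and it stayed between -1.27 and -0.98, and past the threshold, in all 34 alternative settings. Kif5a, a form found mainly in neurons, had a dorsal median of 579.4 CPM (214.5 to 904.4) and a ventral median of 897.6 (654.1 to 2127). It was lower dorsally in 18 of 20 mice, by -0.72 ± 0.08 (adjusted p = 5.06e-16). Kif5c, the other neuronal form, had a dorsal median of 235.6 CPM (62.54 to 516.8) against 464.8 (276.2 to 915.7), was lower in 18 mice and differed by -0.76 ± 0.10 (adjusted p = 1.91e-12).

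The neurofilament triplet, which sets the calibre of large axons, was lower dorsally as well. Nefl, the light chain (chr14:68083863-68089095, plus strand), had a dorsal median of 1900 CPM (844.8 to 6282) and a ventral median of 3464 (2282 to 5243). In 19 of 20 mice the dorsal level was the lower one, and the difference was -0.69 ± 0.07 (adjusted p = 2.12e-19). Nefh, the heavy chain (chr11:4938754-4948064, minus strand), had a dorsal median of 460.2 CPM (250.1 to 1176) against 1003 ventrally (584.6 to 1306), and differed by -0.74 ± 0.08 (adjusted p = 6.02e-17). Nefm, the medium chain, differed by -0.55 ± 0.08 (adjusted p = 3.8e-10), with the dorsal level lower in 18 mice. The annotated spans of Nefl and Nefm overlap on opposite strands, and no source used here says whether the counting used strand. Of 13 genes listed for the axon's cytoskeleton and its motors, 5 were lower, beside 3.46% of all genes tested. They were the 3 neurofilaments, Kif5a and Kif5c. Of the others 1 was higher and 7 were not called, and the list's median was -0.24. The higher one was Gap43, a protein of growing axon ends, at 0.50 ± 0.11 (adjusted p = 0.000628). The tubulin genes Tubb3 and Tubb2a, at -0.03 and 0.05, and the intermediate filament gene Ina, at 0.25, did not pass the test. The list's summed level, a CPM without the scaling between libraries, was lower dorsally in 19 of 20 mice.

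**Figure D2:**
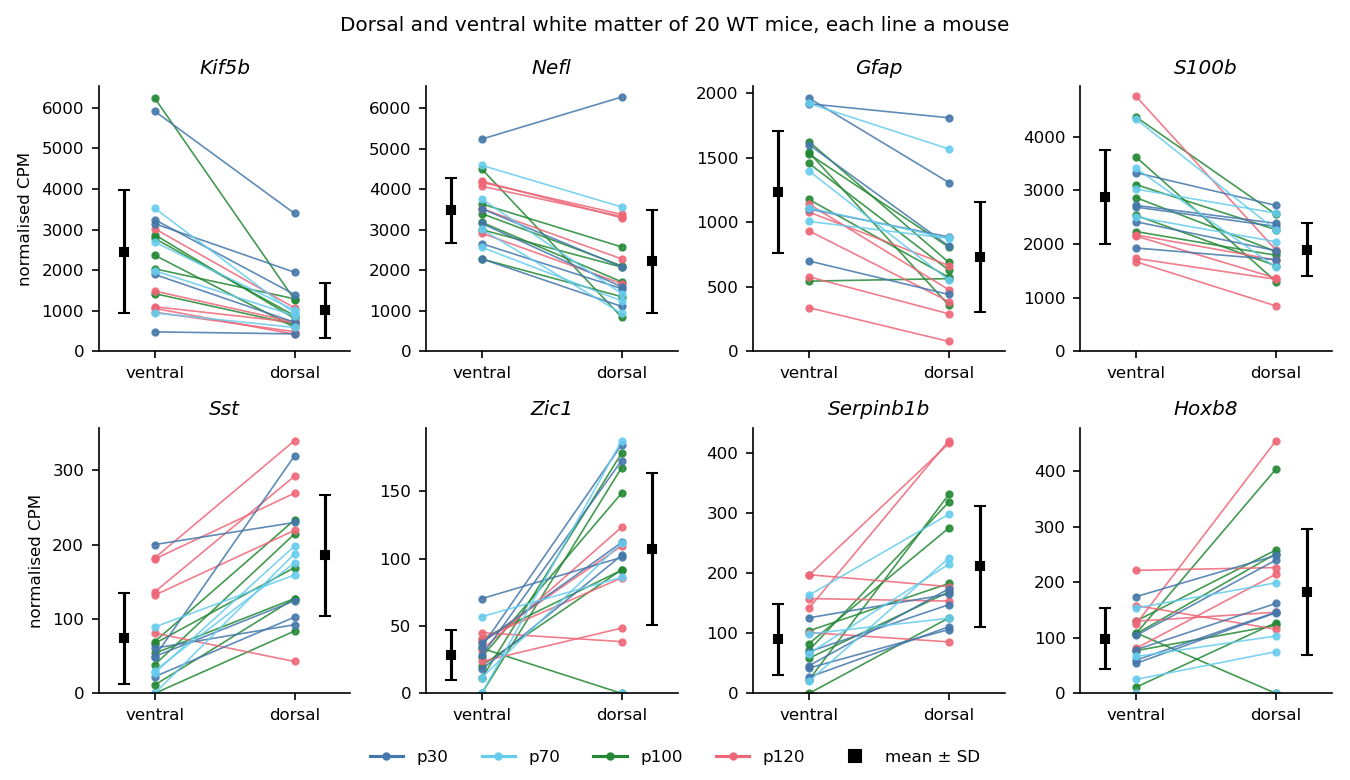
Each line joins the ventral and dorsal white matter values of a mouse, coloured by age, with normalised CPM on the y axis and the mean ± SD of 20 mice as black squares. Kif5b and S100b fell from ventral to dorsal in all 20 mice, Nefl and Gfap in 19, while Sst was higher dorsally in 19 and Zic1 in 17.

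Motor neuron genes were lower dorsally in 3 of 6 tested cases, beside 3.46% of all genes tested, with a median of -0.55. They were Slc5a7, the choline transporter (-0.63 ± 0.16, adjusted p = 0.00426), Slc18a3, the vesicular acetylcholine transporter (-0.91 ± 0.26, adjusted p = 0.0144), and Spp1, the secreted phosphoprotein osteopontin (-0.74 ± 0.17, adjusted p = 0.000611). Prph, the neurofilament relative of motor and sensory axons, stood at -0.39 ± 0.17 and was not called. Slc5a7 lost its call in 7 alternative settings. The list's summed level ran from 274 to 2432 CPM dorsally and from 515.3 to 2035 ventrally. Axonal RNA and RNA from ventral horn cell bodies beside the spots cannot be told apart here.

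Astrocyte genes were lower dorsally in 9 of 20 tested cases, beside 3.46% of all genes tested, and higher in none. Their median was -0.27. Gfap, the intermediate filament of fibrous astrocytes (chr11:102887336-102900912, minus strand), had a dorsal median of 646.4 CPM (76.87 to 1808) and a ventral median of 1158 (338.3 to 1960). Its dorsal value was lower in 19 of 20 mice, by -0.76 ± 0.08 (adjusted p = 2.62e-18). S100b, a calcium-binding protein of astrocytes and of some oligodendrocytes, ran from 845.6 to 2716 CPM dorsally (median 1866) and from 1669 to 4745 ventrally (median 2702). All 20 mice had less of it dorsally, with a difference of -0.51 ± 0.07 (adjusted p = 8.78e-11). Both genes of the main glutamate uptake carriers were lower. Slc1a3 had a dorsal median of 131.4 CPM (38.44 to 221.5) against 285.9 (108.8 to 470.7), a difference of -0.82 ± 0.12 (adjusted p = 1.82e-09), and Slc1a2 differed by -0.39 ± 0.07 (adjusted p = 4.46e-06).

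Other called astrocyte genes included the angiotensinogen gene Agt (-0.37), the growth factor receptor Fgfr3 (-0.36), the matrix protein gene Sparcl1 (-0.27) and the water channel Aqp4 (-0.26). Aqp4 lost its call in 10 of the 34 settings, and Gfap and S100b in none. The gap junction gene Gja1 stood at -0.18, Aldoc at -0.15 and the cytosolic marker Aldh1l1 at -0.01, and they were not called. The summed astrocyte level was 10730 to 16900 CPM dorsally (median 13330) and 12070 to 18550 ventrally (median 15730), lower dorsally in 18 of 20 mice. Under DESeq2's size factors 6 of the 20 genes were lower, beside 119 of all 6585 genes, and 0 higher. With spots next to the cord's edge left out (16 mice), 8 of 19 were lower, beside 68 of all 3801 genes. In summed spots, fewer cells of a type and less RNA per cell cannot be told apart.

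Other lower genes with the smallest p included matrix, complement and uncharacterised transcripts. Sparc, a matrix glycoprotein, had a dorsal median of 1208 CPM (394.2 to 2168) and a ventral median of 2079 (1416 to 2941), and differed by -0.62 ± 0.07 (adjusted p = 8.06e-15). C3, the central complement component, had 51.2 ± 49.96 CPM dorsally and 122.8 ± 93.25 ventrally, with 4 mice at 0 counts dorsally, and differed by -1.25 ± 0.17 (adjusted p = 6.63e-11). The uncharacterised gene 4833423E24Rik had 34 counts in all dorsal sums, with 8 mice at 0, and 446 in the ventral ones, with means of 17.49 ± 17.16 and 85.82 ± 46.91 CPM. That amounted to -1.99 ± 0.24 (adjusted p = 3.25e-14), and it was lower in 18 mice. Apod, an apolipoprotein of oligodendrocytes and other glia, differed by -0.50 ± 0.07 with lower values in 19 mice. Cdr1, with 86 dorsal counts and 3 mice at 0 there, differed by -1.22 ± 0.17 and lost its call in 3 settings, voom among them. Gm20594, a short predicted gene, differed by -0.67 ± 0.08. It lost its call in 4 settings, among them voom and the L7 and L8 arrays alone.

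Of 23 myelin genes tested, 9 were called lower dorsally, beside 3.46% of all genes tested, while 0 were called higher and 14 not called. The median was -0.21, and 22 of the 23 estimates were below 0. Trf, transferrin made by oligodendrocytes, had the smallest p, at -0.36 ± 0.07 (adjusted p = 3.86e-05), and was lower in 20 of 20 mice. Mobp, a myelin basic protein relative, differed by -0.32 ± 0.07 (adjusted p = 0.000319), and Mbp by -0.32 ± 0.07 (adjusted p = 0.000982). Trf, Mobp and Mbp lost their calls in 3, 4 and 6 of the 34 settings. Mag, Ermn, Car2, Olig1 and Sox10 were also called, at -0.26, -0.24, -0.23, -0.26 and -0.43, and lost their calls in 7, 22, 15, 16 and 12 settings. Cnp, Mog, Mal and Cldn11 were at -0.15, -0.21, -0.12 and -0.10 and were not called. The summed myelin level of the mice ran from 19690 to 127600 CPM dorsally and from 30360 to 121700 ventrally and was lower dorsally in 14 of 20.

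These calls moved with the settings. Under DESeq2's size factors 4 of the 23 were lower, beside 119 of all 6585 genes, and under DESeq2 2, beside 100. On the L7 and L8 arrays alone 3 were lower, beside 173 of 6287. With no filter on low counts 15 were lower, beside 458 of 16369. With no minimum of spots or counts 10 were lower, beside 232 of 5909. Without the filter the median over all genes moved from -0.04 to -0.15, and that of the myelin genes from -0.21 to -0.31. Without spots that touch the cord's edge, 0 of 23 were called, the median was -0.03, and 12 estimates lay below 0 and 11 above. In that setting 68 of 3801 genes were called lower, so the count of 0 is near the share over all genes. Edge contact differed between the regions (36.04% of dorsal and 57.38% of ventral spots), and its part in the myelin result was not tested beyond that value. Among the oligodendrocyte state genes, 2 of 8 were lower, Apod and Car2, while Opalin at 0.08, Ptgds at -0.09 and Klk6 at -0.31 were not called. Of 9 tested precursor and newly formed oligodendrocyte genes, Bcas1 alone was called (-0.36 ± 0.08, adjusted p = 0.000998), and Pdgfra was at 0.15 and Gpr17 at -0.18. Of 23 genes of cholesterol and myelin lipid synthesis, 2 were lower, Nsdhl (-0.61) and the fatty acid desaturase Scd2 (-0.23). Neither was called under DESeq2's size factors. Of 18 genes of the node of Ranvier and its flanks, 2 were lower: Ank3, ankyrin G, which anchors sodium channels at the node (-0.47 ± 0.08, adjusted p = 2.06e-06), and Hapln2, a link protein of the nodal matrix (-0.44 ± 0.12, adjusted p = 0.0103). Estimates of the node list were mixed, 12 below 0 and 6 above, with a median of -0.11. Over all genes tested 3.46% were called lower, and whether the state, precursor, lipid or node lists exceed that share was not tested.

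Neuronal and synaptic genes were higher in dorsal white matter in 10 of 18 tested cases, beside 2.4% of all genes, and lower in none. They had a median of 0.32. Their summed level ran from 2805 to 12360 CPM dorsally (median 6413) and from 1920 to 9548 ventrally (median 3644), and was higher dorsally in 20 of 20 mice. Meg3, a long RNA abundant in neuronal nuclei, had a dorsal median of 838.8 CPM (125.1 to 2390) against 398.8 (81.12 to 853). It was higher in 18 mice, by 0.93 ± 0.09 (adjusted p = 1.18e-17). With a prior count of 2, the differences of single mice ran from -1.43 to 2.23. Snhg11, another neuronal long RNA host gene, had a dorsal median of 288.8 CPM (0 to 914.6) against 137.6 (0 to 317.7) and differed by 0.96 ± 0.11 (adjusted p = 1.33e-16). The synaptic vesicle genes Syt1, Syp, Snap25 and Vamp2 differed by 0.77, 0.46, 0.27 and 0.31. Vamp2 lost its call in 12 of 34 settings, Syp in 8, Snap25 in 4 and Syt1 in 1. Genes of GABA synthesis, Gad1 and Gad2, differed by 0.64 and 0.76, and the kinase and calmodulin-binding genes Camk2a and Nrgn by 1.08 and 0.75. The glycine transporter Slc6a5 stood at 0.04, the glutamate transporter Slc17a6 at 0.31 and Rbfox3 at 0.16, and they were not called.

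Dorsal horn neuron genes were higher in 6 of 10 tested cases, beside 2.4% of all genes tested, and lower in none. They had a median of 0.84. Sst, the inhibitory neuropeptide somatostatin (chr16:23889573-23890958, minus strand), had a dorsal median of 181.5 CPM (42.89 to 339.5) and a ventral median of 57.3 (0 to 199.9). In 19 of 20 mice the dorsal value was higher, and the difference was 1.32 ± 0.14 (adjusted p = 9.83e-18). Penk, the enkephalin precursor, had a dorsal median of 130 CPM (0 to 319.8) against 55.84 (19.54 to 166.6), was higher in 15 mice and differed by 1.06 ± 0.15 (adjusted p = 3.8e-10). The substance P precursor Tac1, the cholecystokinin gene Cck, the calcium-binding protein gene Calb1 and the neurokinin B gene Tac2 differed by 0.95, 0.82, 1.01 and 0.86. Tac2 was higher in only 9 mice and lower in 10, with means of 45.21 ± 63.72 and 27.59 ± 25.55 CPM, and lost its call in 5 settings. Calb2, Nts, Cartpt and Reln were at -0.20, -0.17, -0.06 and -0.35 and were not called. The summed level of this list was higher dorsally in 20 of 20 mice, at 351.9 to 1979 CPM against 210.4 to 1181.

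Both neuronal results have grey matter beside them. Nearly all dorsal spots (98.97%) touched a grey matter spot. RNA of the adjoining dorsal horn and RNA of the white matter itself cannot be told apart in these spots. In the dorsal horn Sst had a mean of 423.6 ± 154.9 CPM (24 mice), in dorsal white matter 172.8 ± 76.51 (20 mice) and in the lateral white matter 96.12 ± 64.48 (23 mice), on the scale of all regions. Too few dorsal white spots lay away from grey matter for a test without contact. On the L6 arrays alone, 1 of 16 neuronal genes and 0 of 4 dorsal horn genes were called, where medians stood at 0.37 and 0.33. Over all genes that fit called 2 of 2218 higher and 11 lower, so the list counts say little there.

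The other genes among the 15 higher ones with the smallest p included further neuronal products. Scg2, a granin of dense core vesicles, had a dorsal median of 246.2 CPM (62.54 to 557.6) against 129.8 (45.73 to 403.2), a difference of 0.88 ± 0.11 (adjusted p = 3.88e-13). The glutamate receptor subunit Gria2, the neuronal calcium-binding protein Necab1, the RNA-binding protein Celf2, the ciliary protein gene Ahi1 and the endocrine protein Resp18 differed by 0.76, 1.45, 0.82, 0.78 and 0.67. Serpinb1b (chr13:33078575-33094380, plus strand) had a dorsal median of 176 CPM (85.78 to 420.8) and a ventral median of 77.32 (0 to 197.6). It was higher dorsally in 17 of 20 mice, by 1.28 ± 0.13 (adjusted p = 1.72e-19).

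Zic1, a zinc finger factor of the dorsal neural tube (chr9:91358058-91365810, minus strand), had a dorsal median of 106 CPM (0 to 187.6, with 2 mice at 0 counts) and a ventral median of 30.14 (0 to 70.35, with 3 at 0). It was higher dorsally in 17 mice and lower in 2, with a difference of 1.72 ± 0.19 (adjusted p = 1.29e-16). Zic1 was the only one of 13 listed dorsal patterning genes that passed the filter on low counts. Ebf3, a helix-loop-helix factor of dorsal interneurons, differed by 1.51 ± 0.23 (adjusted p = 7.39e-09). None of the 5 tested ventral patterning genes was called: Nkx2.2, Nkx6.2, Nkx2.9, Ptch1 and Spon1 were at -0.27, -0.12, -0.26, -0.18 and -0.46. By unadjusted p, Spon1 alone would pass 0.05.

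Hox genes, which set position along the length of the body, were higher dorsally in 5 of 16 tested cases and lower in none. Over all genes tested 2.4% were called higher. The Hox median was 0.21. The 5 called genes belonged to the HoxB cluster on chromosome 11, of which 7 genes were tested. None of the 4 HoxA, 3 HoxC and 2 HoxD genes tested was called by edgeR, DESeq2 or voom. Hoxb8 (chr11:96281905-96285315, plus strand) had a dorsal median of 154 CPM (0 to 454.5) and a ventral median of 105.6 (0 to 221.3). It was higher in 17 mice and differed by 0.93 ± 0.13 (adjusted p = 3.8e-10 in edgeR and 0.000484 in voom). Its neighbour Hoxb9 (chr11:96271457-96276595, plus strand) had medians of 70.6 and 32.41 CPM and differed by 1.23 ± 0.19 (adjusted p = 5.94e-08). Hoxb3, Hoxb5 and Hoxb6 differed by 1.29, 1.10 and 0.63. Hoxb7 at 0.82 and Hoxb2 at 0.21 were not called, but DESeq2, voom and edgeR with DESeq2's size factors each called Hoxb7 as well, at 0.92, 0.89 and 0.90. Whether the clusters differ from each other was not tested. Of these, Hoxb6 lost its call in 6 settings and Hoxb3 in 2.

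The lists of microglial, blood, ependymal, vascular, meningeal and Schwann cell genes gave 0 to 2 called genes each, of 2 to 9 tested, beside 5.86% of all genes. None of 8 tested microglial genes was called by edgeR or DESeq2, none had an unadjusted p below 0.05, and the median was -0.06. The receptor gene Csf1r, the complement gene C1qa and the adaptor gene Tyrobp stood at -0.01, -0.05 and 0.06, and their summed list was higher dorsally in 11 of 20 mice. None of 87 genes with an Rpl or Rps symbol, 4 immediate early genes, 2 blood cell genes or 2 ependymal genes was called by edgeR, and by unadjusted p 2 of the 87 and none of the others would pass 0.05. DESeq2 called 1 of the 87 higher. The symbols stand mostly for ribosomal proteins but also take in S6 kinases and a binding protein. Of 9 endothelial and mural genes, only Acta2, the smooth muscle actin, was lower (-1.46 ± 0.41, adjusted p = 0.00975), on 14 dorsal counts with 11 mice at 0, and it lost its call under DESeq2 and voom. Of 7 meningeal fibroblast genes, Dcn (-0.50) and Col1a1 (-0.58) were lower, and the summed list stood at 53.88 to 1119 CPM dorsally and 122.7 to 1090 ventrally. Of 3 Schwann cell genes 2 were lower, among them Pmp22 (-0.38 ± 0.08, adjusted p = 0.000378). All 7 meningeal and all 3 Schwann cell estimates lay below 0, with medians of -0.476 and -0.375. Under DESeq2 0 genes of either list were called. The part of root or meningeal tissue at the cord's surface in these values was not tested. Dcn lost its call in 16 of 34 settings, Col1a1 in 7 of 33 and Pmp22 in 5 of 34.

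The same dorsal to ventral difference was computed for the horns of these mice, to ask where white matter departs from the grey matter beside it. In the horns 3847 of 7862 genes (48.9%) differed, 1929 higher dorsally (24.5%) and 1918 lower (24.4%). Of the 156 genes higher in dorsal white matter and tested in the horns, 139 were also called higher in the dorsal horn, 2 were called lower and 15 were not called. These 139 made up 89.1% of the white matter genes and 7.21% of those higher in the dorsal horn. Of the 227 lower in dorsal white matter, 131 were called lower in the dorsal horn, 17 were called higher and 79 were not called, and the shared 131 made up 57.7% and 6.83% of these lists. The difference itself departed between white matter and horn for 1226 of 7862 genes (15.6%), 470 (5.98%) with the white matter value above that of the horn and 756 (9.62%) with it below.

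Among genes higher in dorsal white matter, 61 departed from the horn, and only 3 of these departures were positive, the sign of the white matter difference. Sst differed by 2.99 between the horns against 1.32 in white matter, Zic1 by 3.17 against 1.72, Serpinb1b by 3.40 against 1.28, and Tac2 by 4.38 against 0.86. Resp18 differed by 0.61 between the horns, and its departure of 0.09 was not called. Among genes lower in dorsal white matter 72 departed, and 54 of these departures were negative, the sign of the white matter difference. The 54 take in genes of the opposite sign in the horns, such as Slc1a3 and Gfap below. Kif5b differed by -0.52 between the horns, and its white matter difference exceeded that by -0.70 ± 0.16 (adjusted p = 0.00124). Kif5a was not called between the horns (0.10) and departed by -0.88 (adjusted p = 9.28e-09). Sparc differed by -0.16 between the horns and departed by -0.51 (adjusted p = 1.17e-05).

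The neurofilaments did the reverse. Nefl, Nefm and Nefh differed by -1.88, -2.10 and -2.24 between the horns, more than in white matter, with departures of 1.16, 1.5 and 1.47. A set of astrocyte genes had opposite signs in the 2 tissues. Slc1a3 was 1.09 higher in the dorsal than the ventral horn and 0.82 lower in dorsal white matter (-0.87 in the fit of all 4 regions), a departure of -1.96 ± 0.17 (adjusted p = 4.84e-15). Gfap was 0.42 higher in the dorsal horn and departed by -1.22 ± 0.20 (adjusted p = 1.19e-05), and Agt was 0.62 higher there and departed by -1.02. The vesicle priming gene Unc13c was 0.90 higher in the dorsal horn and departed by -1.70 ± 0.16 (adjusted p = 4.84e-15). The next smallest p among the negative departures belonged to Vamp2, Marcks and Shisa8, at -1.05, -1.37 and -2.69, all higher in the dorsal horn and not called in the white matter of this fit, which called 5.25% of genes there. The positive departures with the smallest p were Endod1, the potassium channel Kcna1, 1110008P14Rik, the pacemaker channel Hcn2 and the ubiquitin hydrolase Uchl1, from 0.68 to 1.13. Each of these 5 was lower in the dorsal horn and not called in white matter.

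**Figure D3:**
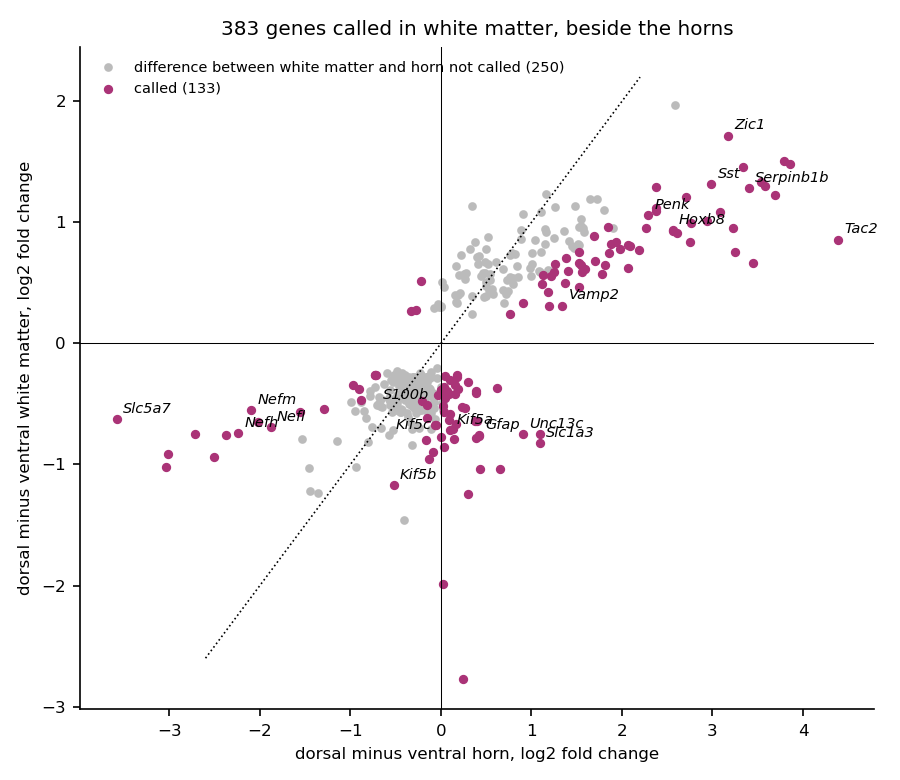
Each point is 1 of 383 genes called in white matter and tested in the horns, with the log2 difference of dorsal minus ventral horn on the x axis and that of white matter on the y axis. The dotted line marks equal differences and purple marks the 133 genes whose difference departed between the tissues. Sst and Zic1 lie below the line, Kif5b lies below it on the negative side, and Gfap and Slc1a3 are in the quadrant of opposite signs.

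Splitting the ventral white matter into its annotated regions showed where the dorsal region stood apart. Against Vent_Med_White 274 of 6100 genes (4.49%) differed, 131 higher dorsally (2.15%) and 143 lower (2.34%), and against Vent_Lat_White 394 genes (6.46%) differed, 204 higher (3.34%) and 190 lower (3.11%). With DESeq2's size factors these splits were 171 higher and 84 lower against the medial region, and 268 and 137 against the lateral one. Without p120 replicate 5 the count against the medial region was 171. The 2 comparisons share the dorsal sums, and the main comparison used the counts of all these regions. Overlap with the main calls is thus no separate support. Of the genes called in the main comparison and tested here, 102 of 142 higher ones and 95 of 226 lower ones were called against both. Kif5b differed by -1.04 from the medial and by -1.15 from the lateral region, Gfap by -0.62 and -0.73, Zic1 by 1.71 and 1.78, Serpinb1b by 1.31 and 1.28, and Sst by 1.17 and 1.47.

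The 2 ventral regions themselves differed in 5 of 6100 genes (0.082%), 4 higher medially (0.0656%) and 1 lower (0.0164%). Unc13c was 0.98 ± 0.10 higher in the medial region (adjusted p = 8.34e-20), and Ank3, Mgp and Kif5a were 0.34, 1.04 and 0.26 higher there. Nefh was 0.34 lower medially. Unc13c was correspondingly uneven against dorsal white matter, at -1.12 from the medial region and -0.14, not called, from the lateral one. The Unc13c difference between the ventral regions lost its call on the L6 arrays alone, where 0 genes were called by edgeR's test, with 55 at an unadjusted p below 0.05. Ank3, Mgp, Kif5a and Nefh lost theirs in 6, 6, 18 and 14 settings. Without p30 replicate 3, 2 genes were called, and without p120 replicate 5 or p70 replicate 2, 3.

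Levels over the 11 regions with 7 or more mice placed dorsal white matter between its neighbours. Kif5b had its highest mean in the lateral and medial ventral white matter, at 2284 ± 1466 and 2093 ± 1276 CPM. The ventral edge, at 1745 ± 936.5, and the lateral white matter, at 1678 ± 945.8, came next, and their SDs spanned the differences. Dorsal white matter had 937.8 ± 613.2, near the ventral horn (977.6 ± 391.3) and the lateral edge (927.6 ± 492.2), and the dorsal horn had 647.6 ± 256.8. Zic1 had its highest mean in the dorsal horn, at 141.7 ± 62.19 CPM, followed by dorsal white matter at 99.36 ± 50.58 and the dorsal edge at 85.47 ± 54.82. Lateral white matter, at 28.91 ± 20.27, and the ventral white regions, at 29.6 ± 22.4 and 24.38 ± 22.79, did not differ from each other beyond their spread. For 4833423E24Rik the medial ventral white matter had 89.05 ± 56.76 CPM, the ventral edge 76.84 ± 53.71, the lateral ventral white matter 68.82 ± 41.57, the lateral white matter 41.36 ± 30.93 and dorsal white matter 16.51 ± 16.24. In the horns this gene had 7.709 ± 10.5 dorsally and 6.746 ± 6.294 ventrally.

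**Figure D4:**
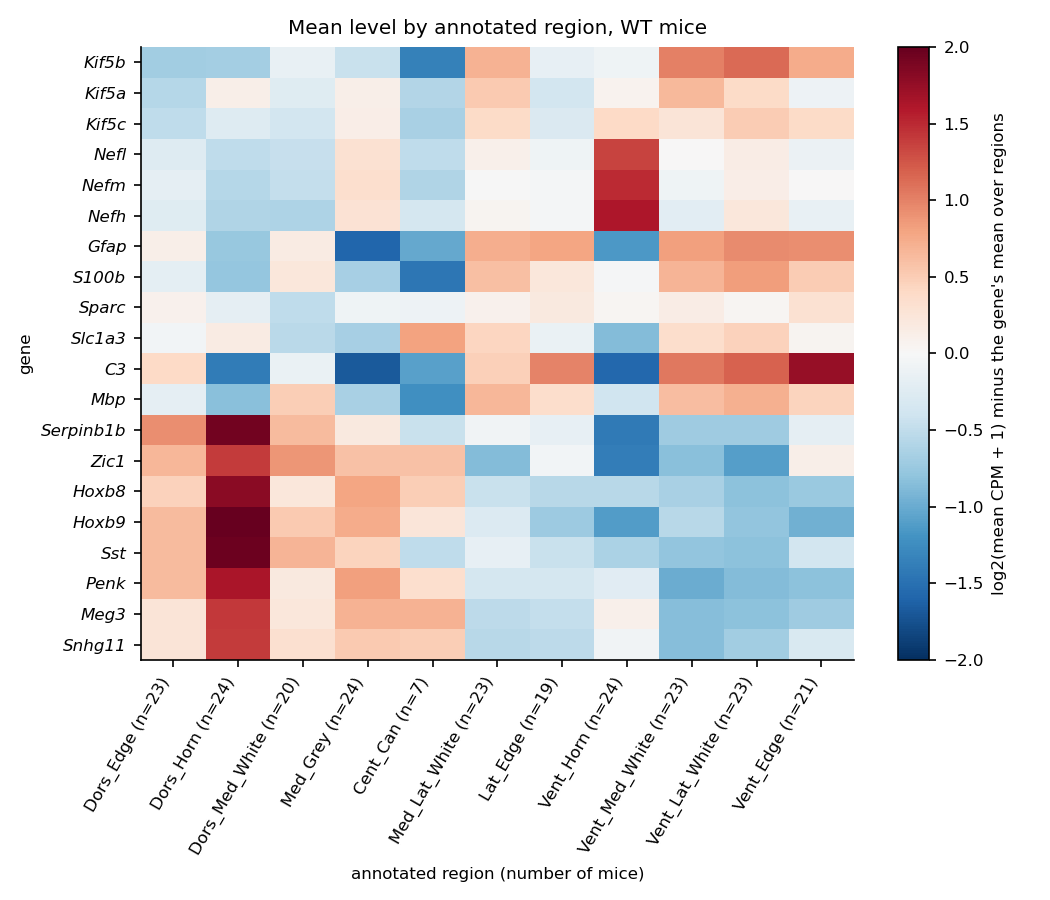
Colour gives the log2 of a gene's mean CPM plus 1 in each annotated region, minus that gene's mean over regions, for 20 genes (rows) and 11 regions (columns, with the number of WT mice). Kif5b is high in the ventral and lateral white matter and low in the dorsal regions, while Zic1, Sst and Hoxb8 are highest in the dorsal horn.

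No gene's dorsal to ventral difference was shown to depend on age. The test that the difference was equal at the 4 ages called 0 of 6585 genes (0%) with edgeR, and 157 had an unadjusted p below 0.05. DESeq2 likewise called 0, and 124 had such a p. The test had little power for small changes. In simulated counts with a change set at p120 alone, edgeR's age test recovered 8.62% of changes of 1 log2 and 61.9% of those of 2. Those counts had the same dispersion for every gene and the same mouse effect in both regions. The recovered shares thus need not hold for the real counts. The contrast of p120 minus p30 called 0, with 211 at an unadjusted p below 0.05. Within single ages 23 genes were called for the p30 mice (0.349%) and 11 for the p70 mice (0.167%). For p100 81 were called (1.23%) and for p120 35 (0.532%). Array versions were not spread evenly over the ages, and among the tested p30 mice only replicate 2 was on L6 arrays. The age fit had no term for version, so values and counts of single ages are mixed with version and depth. Kif5b differed by -0.88, -1.21, -1.63 and -1.01 from the youngest to the oldest age, and Gfap by -0.53, -0.45, -1.13 and -1.04. S100b stood at -0.24, -0.55, -0.66 and -0.66, and Zic1 at 1.77, 1.59, 1.94 and 1.54. The smallest unadjusted p of the age test belonged to Lars2, at 0.000107 (adjusted p = 0.703). For Gfap the unadjusted p of that test was 0.00482 (adjusted p = 1).

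**Figure D5:**
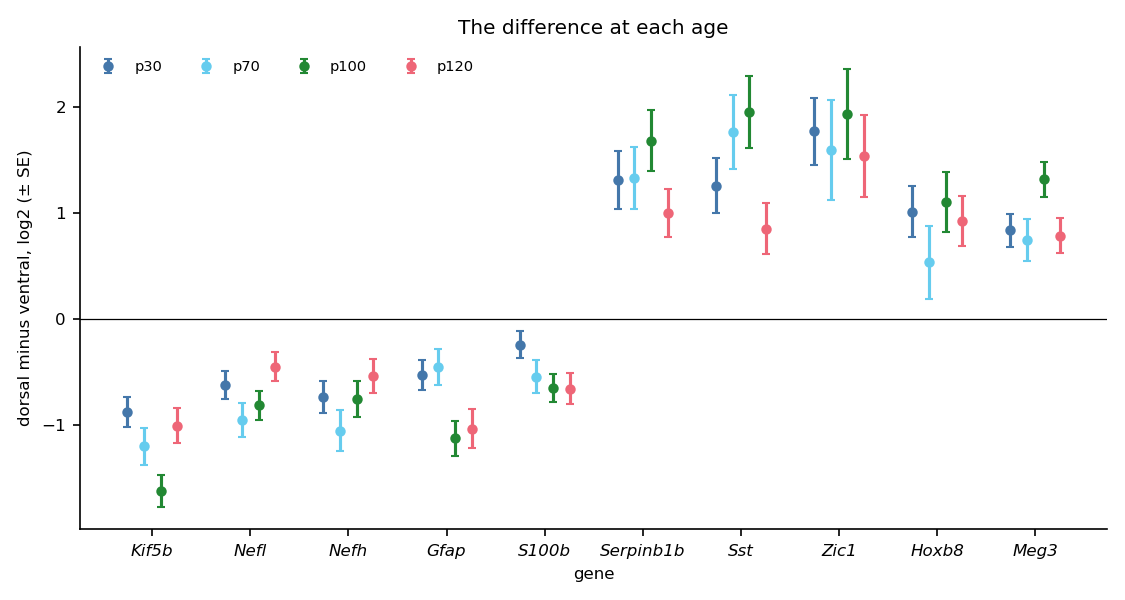
The log2 difference of dorsal minus ventral white matter (y axis) is shown with its SE for 10 genes (x axis) at each age, for 5, 4, 6 and 5 mice in order of age. Kif5b, Nefl, Nefh, Gfap and S100b lie below 0 at every age, and Serpinb1b, Sst, Zic1, Hoxb8 and Meg3 above it.

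The arrays came in barcode versions, L6 for 9 of the tested mice and L7 or L8 for 11, and dorsal sums held 10947 to 118852 counts on L6 and 49108 to 206085 on the others. The test of a difference between versions called 0 of 6585 genes (0%), and 472 had an unadjusted p below 0.05. DESeq2 called 0 of them, with 302 such p. Within versions, in the shared fit, 102 genes (1.55%) were called on L6, 5 of them higher (0.0759%) and 97 lower (1.47%). On L7 or L8 233 (3.54%) were called, 140 higher (2.13%) and 93 lower (1.41%). In some shallow L6 mice the dorsal sum's TMM factor stood well above the ventral one. It was 1.657 against 1.025 in p100 replicate 1 and 1.549 against 0.9414 in p70 replicate 2. It was 1.012 against 0.9955 in p30 replicate 2, also L6, and 1.018 against 0.984 in p120 replicate 5 on L7. A larger factor lowers every dorsal CPM of that mouse, and its part in the L6 split was not tested. Kif5b differed by -1.32 on L6 and -1.10 on L7 or L8, Gfap by -1.07 and -0.66, Nefl by -0.69 and -0.68, Zic1 by 1.34 and 1.81, Sst by 0.92 and 1.46, and Penk by 0.18 and 1.32. Gria2 stood at 0.01 on L6 and 0.95 on L7 or L8, and the difference between versions was not called for it. Fitted alone, the 9 L6 mice gave 13 called genes of 2218 tested, among them Kif5b, Nefl, Nefh, Gfap, S100b and Sparc, and the 11 L7 and L8 mice gave 394.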

How the data were processed

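Polyadenylated RNA of spinal cord sections was counted per spot on 108 arrays of 24 WT mice, of 331 arrays in the series. The authors deposited whole-number counts per gene symbol and spot, used here as raw counts, and a table of annotated regions per spot. The build was GRCm38, per the submitters' processing notes, and per the labels ST Pipeline 0.8.5 made the tables of arrays shared by 2 genotypes. For the other arrays the aligner and counter, and for all arrays the annotation and any collapsing by molecular identifier, have no statement in the sources used here. Coordinates are those of GENCODE vM21 (GRCm38), matched by symbol for 6492 of the 6585 genes tested, and a dot stands for a hyphen in symbols.

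Tables list only symbols with a count and follow 3 naming sets, so a symbol was used if all 3 sets list it (17261 of 22923 symbols). Symbols on more than 1 row (20) were added together. Ambiguous features, 0.587% of the WT counts, were left out, as were 517 WT spots without annotation. Counts were summed per mouse and region over arrays. The mouse was the replicate and, since the same animal gave both sums, the block. Tests used edgeR 4.0.16 (glmQLFit, robust, and glmQLFTest; TMM; filterByExpr) in R 4.3.3 with Benjamini-Hochberg adjustment over all genes tested, called below 0.05, and were tested on simulated data. SEs are each log2 difference over the root of its F. CPM are scaled by TMM, and those by region come from a separate scaling over all regions. Left out for too few spots or counts were p30 replicate 1, p100 replicates 5 and 8 and p120 replicate 1. A spot was next to grey matter or edge if an annotated spot of that kind lay within 1.5 grid steps. Replicate numbers of WT mice only name animals. No clustering, deconvolution or doublet detection was run.

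Genes named are the 15 higher and 15 lower with the smallest p, 5 per direction in the other comparisons, and members of the gene lists. Regions, comparisons and lists were chosen with earlier results of these data known. Alternatives were DESeq2 1.42.0 and its size factors, limma 3.58.1 (voom, mouse as a random effect), no filter, no block, a minimum of 30 spots, array versions apart, 1 naming set, spots away from the edge, no arrays of 2 genotypes, and each mouse left out. Added after seeing the data were no minimum size, symbols with a count in every table, and spots with a grey neighbour. A few list members are counted but not reported here by name.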

Additional observations from a re-analysis of the deposited data

Results flagged for a closer look

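For the 30 named genes of the white matter comparison, the log2 difference of each mouse (with a prior count of 2) was set beside those of the other mice of its age. In 120 such groups of a gene and an age, 12 held a mouse that stood far from the others, and chance alone flags about 1 in 20 groups. The p100 replicate 1, whose dorsal sum had 11 spots and 11389 counts, accounted for 5: Snhg11 at -1.61 (others 1.02 to 2.0), Hoxb8 at -3.31 (0.59 to 2.57), Resp18 at -4.23 (0.57 to 1.87), Nefl at -2.4 (-0.89 to -0.5) and Nefm at -3.05 (-0.55 to -0.11). Without that mouse Hoxb8 differed by 0.97, Nefl by -0.64 and Nefm by -0.50, and each was still called. In p120 replicate 2, with 10 dorsal spots, Sst stood at -0.76 (others 0.55 to 1.03) and Resp18 at 1.98 (0.35 to 0.81). In p30 replicate 2 Meg3 stood at 0.0 (others 0.96 to 1.07) and Nefl at 0.26 (-1.03 to -0.75). In p30 replicate 4 Scg2 stood at 2.83 (others 0.19 to 0.94) and Gm20594 at -1.66 (-0.43 to 0.02). In p70 replicate 1 Gfap stood at -1.32 (others -0.34 to -0.2).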

How the results depend on the processing

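None of the 74 named genes called in the white matter comparison changed sign in any setting in which it was tested, whereas uncalled list members did (11 of 23 myelin genes were above 0 away from the edge, against 1). The 74 were chosen by their calls, and every setting refits the same counts or a part of them. Their constant sign is thus no separate support. Among the 74, 2202 pairs of a gene and a setting kept the call and 269 lost it. Kif5b, Nefl, Nefh, Gfap, S100b, Sparc, Apod, C3, 4833423E24Rik, Hoxb9, Hoxb5, Necab1, Ebf3 and Camk2a lost it in none of the settings in which they were tested. In place of 386 genes, voom called 252, and spots away from the edge gave 132 (16 mice, 3801 genes tested). The 9 L6 mice alone gave 13. Leaving out single mice gave 256 to 404, with 256 without p120 replicate 5, the only mouse whose absence moved the count by over 1.5 times. With no filter on low counts 572 were called, 114 higher and 458 lower, and the median over all genes moved to -0.15. The cause of these changes was not tested, except that fewer mice or genes entered where so stated.

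In the setting with no replicate block the mouse was left out of the design, which ignores the pairing of 2 regions of an animal. Age and array version entered the design instead. The filter then kept 4229 genes in place of 6585, and 93 were called in the main comparison. This setting called 712 genes for white matter against horn, 65 and 105 against the medial and lateral ventral regions, and 1 between these. The L6 mice alone gave 12, 6, 18 and 0 for the last 4. The single naming set gave 723 for white matter against horn. Away from the edge, 86 genes were called against each ventral region. Between the ventral regions DESeq2 called 3, voom 1, L7 and L8 arrays 8 and the single naming set 1. The age test called 1 under the single naming set, and the array version test called 5 there and 6 with at least 30 spots. With single mice left out these tests gave 0 to 1 (age; 1 without p120 replicate 5) and 0 to 1 (version; 1 without p100 replicate 1 or 2). The same gave 1020 to 1301 (white matter against horn), 171 to 294 and 275 to 421 (against the medial and lateral ventral regions; 171 without p120 replicate 5) and 2 to 5 (between these; 2 without p30 replicate 3). Spots away from grey matter could not be tested, since at most 2 dorsal spots per mouse remained. Dorsal depth limits genes of low level.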
